A study of Mus musculus with 56 samples.

Results

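T cell receptors built with the variable segment TRBV13-2 are described here in mouse liver tumours that carry a luc or a lucOS construct. The members were all T cells whose kept beta chain contig was assigned to TRBV13-2 or to the joint entry TRBV12-2+TRBV13-2, which made 1490 of 7605 T cells (19.6%) and 645 of 4929 clonotypes. They were chosen by their share of T cells in lucOS against luc tumours in these same libraries, so that contrast is given as a description with no test. Each barcode called a cell counted as 1 T cell where it had a productive, high-confidence beta chain (TRB) contig. A clonotype was a combination of V segment, J segment and CDR3 bases within 1 animal, with both member entries counted as 1 segment.

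The libraries were single-cell receptor libraries of dissociated tumour nodules, labelled hepatocellular carcinoma, in which CD45 positive immune cells and CD45 negative cells had been mixed again in equal numbers before loading. Every genotype label carries a Myc construct. Females with MycLuc and NICD, MycLuc and sgp53, MycLucOS and NICD, and MycLucOS and sgp53 made groups of 3 animals each, and MycLucOS with NICD was also measured in 2 males. In 1 luc NICD library the label runs the names together as MycLucNICD. NICD is the active intracellular part of NOTCH1, and sgp53 stands for a guide RNA that targets p53, a tumour suppressor. The luc construct carries luciferase, a protein foreign to the mouse, and in lucOS the luciferase is joined to model antigens for T cells. Age, strain and the origin of the tumour nodule within the liver are not given in the labels of these libraries. The lucOS sgp53 group holds 4 libraries, because replicates 3 and 4 carry the name of 1 animal. Those 2 libraries were averaged for shares and pooled within the animal elsewhere, which leaves 15 libraries of 14 animals. A library held 49 to 1282 T cells, and luc NICD replicates 2 and 3 were the smallest with 77 and 49. The tests treat the animal as the replicate and measure the spread between animals.

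The beta chain of a T cell receptor is joined in the thymus from a V, a D and a J segment, and random bases are trimmed and added at the joints. The joined stretch, the CDR3, lies over the peptide when the receptor binds a peptide held by an MHC molecule, while loops encoded by the V segment mostly touch the MHC. All T cells that descend from 1 parent share its CDR3 bases, so a repeated sequence within an animal marks a clone. TRBV13-2 is a common mouse beta segment, and it is also 1 of the few beta segments used by invariant natural killer T (NKT) cells, which recognise lipids on CD1d and are abundant in liver. RefSeq places Trbv13-2, a V segment of the T cell receptor beta locus, at chr6:41121396-41121832 of GRCm38.p6.

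The CDR3 bases of the largest TRBV13-2 clonotype in each group are shown first, as examples picked by their size. Lower case marks bases that match the most frequent V end of the members or the most frequent end of clonotypes with the same J segment, and capitals mark the bases between them. The V end, with the bases that follow the shared first 11 in capitals, read
V end of TRBV13-2 members: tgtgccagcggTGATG
The largest clonotypes of the 5 groups were
luc NICD female, TRBJ1-2, 2 cells: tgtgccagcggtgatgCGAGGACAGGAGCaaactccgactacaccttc
luc sgp53 female, TRBJ1-4, 3 cells: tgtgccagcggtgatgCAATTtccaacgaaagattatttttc
lucOS NICD female, TRBJ2-7, 60 cells: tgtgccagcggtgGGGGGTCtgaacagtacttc
lucOS NICD male, TRBJ1-6, 47 cells: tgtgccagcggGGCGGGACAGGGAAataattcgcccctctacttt
lucOS sgp53 female, TRBJ2-5, 110 cells: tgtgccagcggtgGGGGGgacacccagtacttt
The luc sequences shown kept all 16 bases of the V end. In luc NICD another clonotype also had 2 cells and kept 14. The lucOS sequences shown kept 13, 11 and 13 bases. Another large lucOS clonotype, with TRBJ2-4 and 32 cells, kept all 16. Over all TRBV13-2 clonotypes the constructs differed less, with means of 14.4 bases in luc and 13.8 in lucOS animals.

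The joint entry was examined first, because it holds 1406 of the 1490 cells and names a second segment. The entry TRBV13-2 alone held 84 cells. The first 11 CDR3 bases, tgtgccagCGG, were the same in all 84 of these cells and in 1381 of the 1406 cells of the joint entry (98.2%). They were found in 0 of 382 cells assigned to TRBV12-2, of which 376 (98.4%) began tgtgccagCTC. At their V end nearly all CDR3s of the joint entry therefore carried the bases of TRBV13-2 and not those of TRBV12-2. The related segments TRBV13-1 and TRBV13-3 began tgtgccagCAG in 94.98% and 90.6% of their cells, and 4.21% of TRBV13-3 cells (22 cells) carried the members' bases. Contigs of TRBV13-2 alone were shorter, with a median of 549 against 573 bases, and rested on fewer unique molecular identifiers (UMIs), with a median of 5 against 12. Both differences held in 9 of 9 libraries with at least 5 cells of the sole entry. In 17 of 645 combinations of J segment and CDR3, cells of 1 animal were split over both entries.

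TRBV13-2 made up a larger share of T cells in lucOS than in luc tumours, while its share of clonotypes was close in both. In luc NICD females the share of T cells was 13.99%, 7.79% and 6.12%. In luc sgp53 females it was 10.4%, 12.9% and 12.9%. In lucOS NICD females it was 11.6%, 17.2% and 29.5%, and in the 2 males 34.3% and 12.6%. In lucOS sgp53 females it was 11.8%, 29.95% and 30.5%, the last being the mean of 23.7% and 37.4% in the libraries of 1 animal. The luc values ran from 6.12% to 13.99%, while in lucOS 3 animals lay between 11.6% and 12.6%, 1 at 17.2%, and 4 between 29.5% and 34.3%. Over animals the share was 10.7% ± 3.15 (SD, n = 6) in luc and 22.2% ± 9.76 (SD, n = 8) in lucOS, and 5 of 8 lucOS animals lay above every luc animal. Counting error is wide in the smallest library, where 3 of 49 cells give a 95% Wilson interval of 2.10% to 16.5%, and narrow in the largest, where 151 of 1282 cells give 10.1% to 13.7%.

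**Figure D1:**
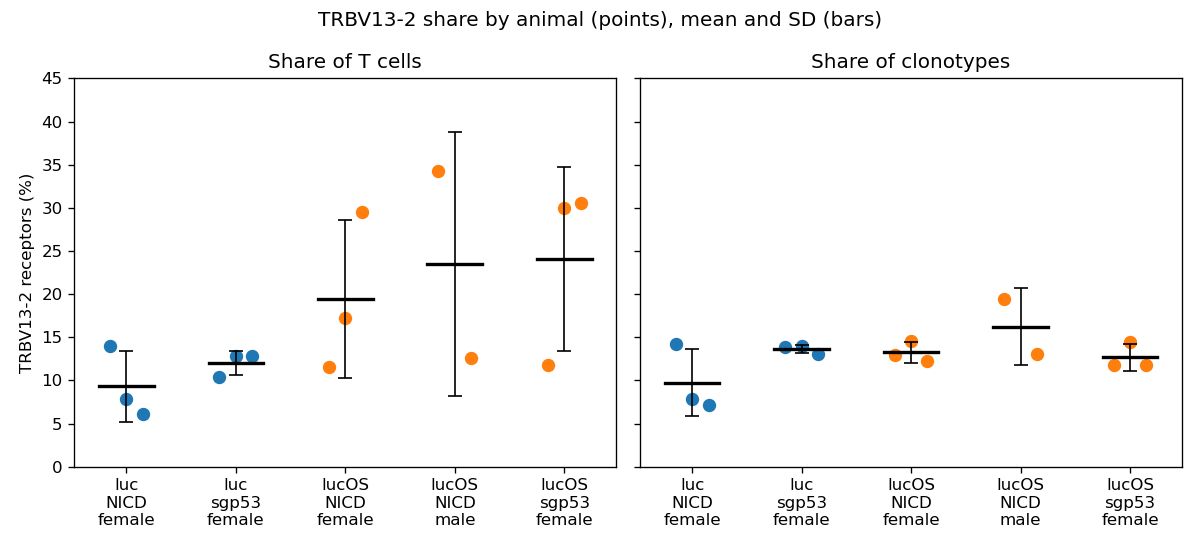
TRBV13-2 receptors as a percentage of T cells (left) and of clonotypes (right), 1 point per animal, with the group mean (bar) and SD (whiskers) for luc (blue) and lucOS (orange) groups. The T cell share reaches 34.3% in lucOS animals and 13.99% in luc animals, while most clonotype shares in both lie between 11.7% and 14.6%.

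Counted by clonotype, the share was 14.2%, 7.79% and 7.14% in luc NICD females and 13.8%, 13.9% and 13.1% in luc sgp53 females. It was 12.9%, 14.6% and 12.2% in lucOS NICD females, 19.4% and 13.1% in the males, and 11.8%, 14.4% and 11.7% in lucOS sgp53 females. The means were 11.7% ± 3.27 (SD, n = 6) in luc and 13.8% ± 2.52 (SD, n = 8) in lucOS. Both low luc values came from the libraries of 77 and 49 T cells. Within females, lucOS minus luc was 10.1 percentage points of T cells in NICD and 12.03 in sgp53 tumours. By clonotypes the same differences were 3.54 and -0.96 points. For the 18 other TRBV entries that averaged at least 1% of T cells, lucOS minus luc averaged over both oncogene settings ran from -3.46 to 2.94 points of T cells, with a median of -0.82, against 11.1 for TRBV13-2. Points depend on how much an entry is used, and TRBV13-2 was the most used. Its female means were 10.7% in luc and 21.8% in lucOS. They were 3.07% and 5.56% for TRBV14, 4.11% and 7.05% for TRBV12-1, and 4.32% and 7.02% for TRBV16. These were the other entries with the largest differences, and the median difference was negative. With the 84 cells of the sole entry alone, whose contigs were shorter and rested on fewer UMIs, the TRBV13-2 difference was -1.54 points, so the higher lucOS share was measured in cells of the joint entry. Fewer other T cells and more TRBV13-2 cells cannot be told apart in a share.

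The largest TRBV13-2 clonotypes held more cells in lucOS than in luc animals. In luc animals the largest TRBV13-2 clonotype held 2, 1 and 1 cells with NICD and 1, 2 and 3 cells with sgp53, and no TRBV13-2 clonotype reached 5 cells. In lucOS animals the largest held 12, 5 and 60 cells in NICD females, 47 and 12 in the males, and 21, 44 and 110 in sgp53 females. In cells every lucOS animal thus exceeded every luc animal. At like depth, the 691 T cells of luc sgp53 replicate 3 gave a largest clonotype of 3 cells, and the 633 of lucOS NICD male replicate 2 gave one of 12. As a share of the animal's T cells the largest TRBV13-2 clonotype was 0.843% ± 0.699 (SD, n = 6) in luc and 6.74% ± 6.85 (SD, n = 8) in lucOS. On this scale the ranges overlapped, 0.249% to 2.04% in luc and 1.64% to 22.4% in lucOS, where the highest luc value is 1 cell of the 49 in NICD replicate 3. These values share their cells with the contrast that chose the members and carry no test.

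Clonotypes of at least 5 cells held 2.78% to 24.96% of all T cells in lucOS animals as TRBV13-2 cells, with a mean of 13.7% ± 11.1 (SD, n = 8). TRBV13-2 cells in smaller clonotypes made up 8.41% ± 2.62 of T cells in lucOS (SD, n = 8) and 10.7% ± 3.15 in luc animals (SD, n = 6). Among clonotypes seen in a single cell, TRBV13-2 made up 12.6% ± 2.17 in lucOS and 11.98% ± 3.44 in luc. Outside the large clones the TRBV13-2 shares of both constructs overlapped.

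**Figure D2:**
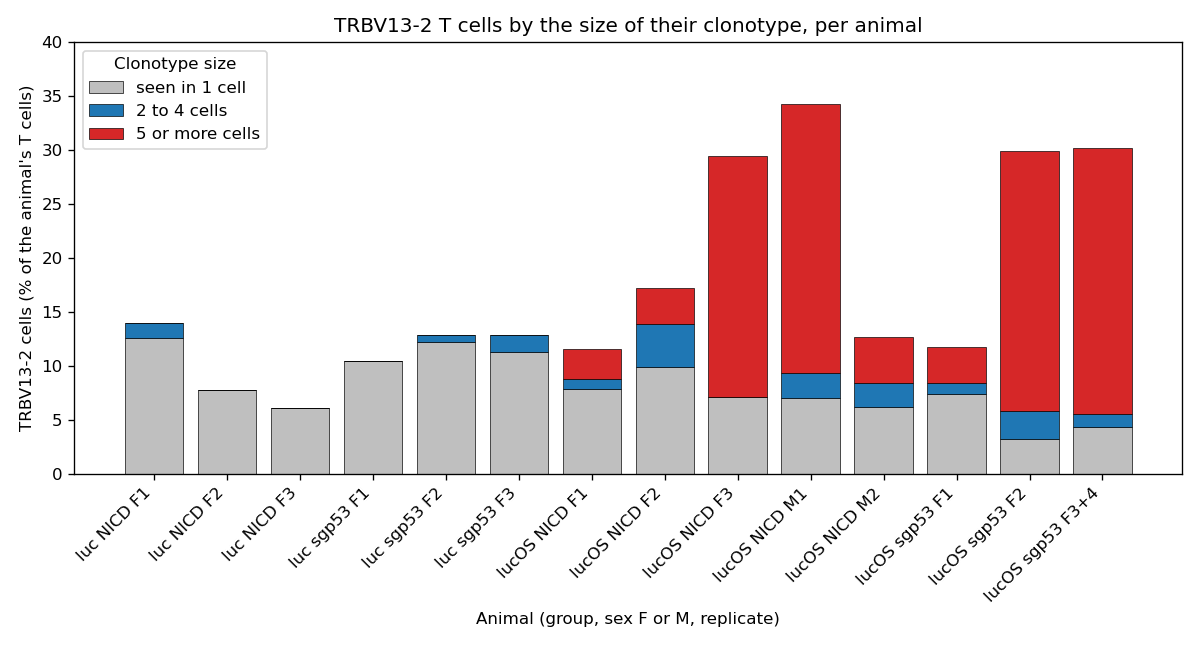
TRBV13-2 T cells as a percentage of each animal's T cells, stacked by the number of cells in their clonotype; replicates 3 and 4 of lucOS sgp53, from 1 animal, are pooled. The red part, clonotypes of 5 or more cells, is absent in all 6 luc animals and spans 2.78% to 24.96% in the 8 lucOS animals.

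Other beta chains also formed large clones, in luc animals too. Clonotypes of at least 5 cells, of any segment, were seen in 4 of 6 luc and 8 of 8 lucOS animals. They held 0% to 18.2% of T cells in luc and 7.95% to 59.3% in lucOS animals. Of 13 clonotypes with at least 5 cells in luc animals, 0 were TRBV13-2, and of 125 in lucOS animals 36 were, with 819 of 2182 cells. The share of TRBV13-2 among cells of such clonotypes ran from 10.7% to 57.7% over lucOS animals, with a median of 41.2%. TRBV13-2 had the largest clonotype of all in 3 of 8 lucOS animals, with 60 against 11 cells in lucOS NICD female replicate 3, 47 against 35 in male replicate 1 and 110 against 102 in lucOS sgp53 replicates 3 and 4. In lucOS sgp53 replicate 2 another beta chain led with 127 against 44 cells. The 4 animals with a T cell share of TRBV13-2 of 29.5% or more had the highest percentage of T cells in TRBV13-2 clonotypes of this size, from 22.4% to 24.96%. These cells are part of that T cell share, so the match is not a separate observation.

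Cells in clonotypes of 2 or more were compared between TRBV13-2 and all other TRB of the same animal, in the 12 animals with at least 10 TRBV13-2 clonotypes. In luc animals 6.89% ± 5.48 of TRBV13-2 cells and 18.7% ± 11.01 of other cells were in such clonotypes (SD, n = 4), and TRBV13-2 was higher in 1 of 4. In lucOS animals the shares were 61.6% ± 23.4 and 41.8% ± 13.2 (SD, n = 8), and TRBV13-2 was higher in 6 of 8. Both exceptions, lucOS NICD female replicate 1 and male replicate 2, belong to the animals with a low T cell share, a value that counts the same cells.

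The members held 606 distinct CDR3 peptides, and the 12 with at least 20 cells held 721 of the 1490 cells (48.4%). Among other TRB 16 of 4086 peptides reached 20 cells and held 800 of 6115 cells (13.1%). Of these 16, only 4 were seen in luc libraries. The 12 TRBV13-2 peptides were not seen among the 257 TRBV13-2 cells of luc libraries, where no clonotype of the segment reached 5 cells. They were picked for their size, so these values describe the same large clones. In order of cells the first, with TRBJ2-5, had 206 cells, all in the animal of lucOS sgp53 replicates 3 and 4, with 89 and 117 in its libraries. The next, with TRBJ2-7, had 96 cells in 3 lucOS sgp53 animals. The third, also with TRBJ2-7, had 75 cells in 4 lucOS animals of both oncogene settings, and the fifth, with TRBJ1-5, had 53 cells in 4 animals. No member peptide of this size was seen in lucOS NICD male replicate 2, whose T cell share was 12.6%.

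**Figure D3:**
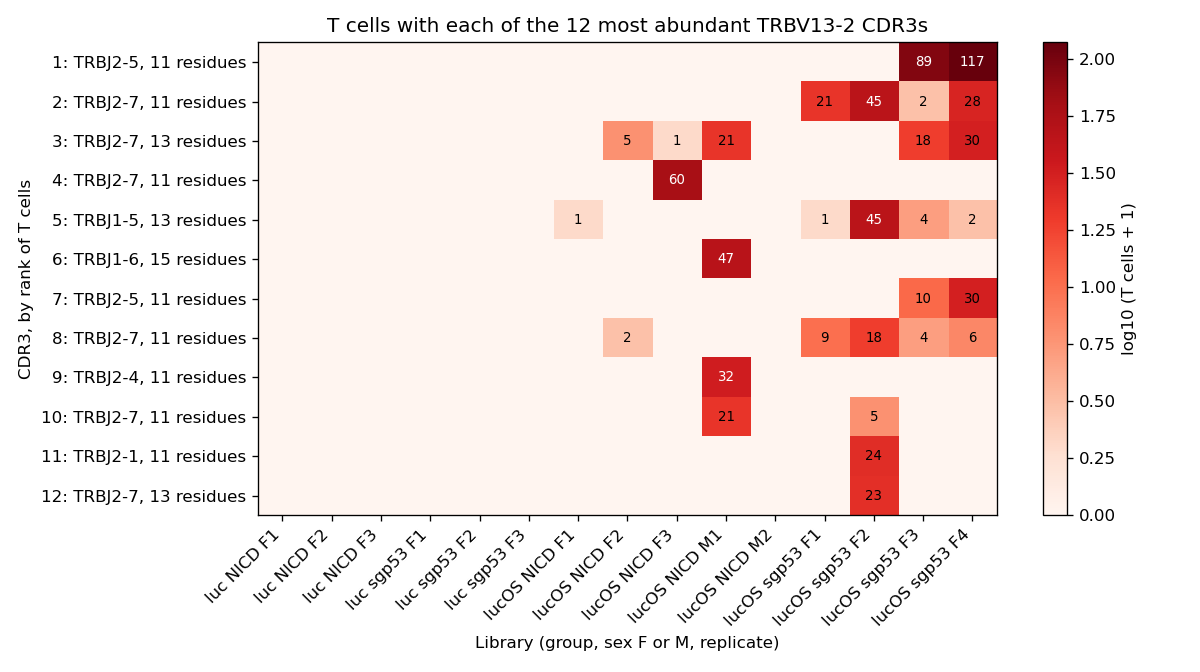
T cells carrying each of the 12 most abundant TRBV13-2 CDR3 peptides (rows, named by rank, J segment and length) in the 15 libraries (columns); the printed numbers are cells and the colour is log10 of cells plus 1. All cells lie in lucOS libraries, and the peptides of rank 3, 5 and 8 each appear in 4 animals.

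Several of these peptides were encoded by different bases. The peptide of rank 1 came in 3 versions within 1 animal, each of which is a separate clone. The shown versions of rank 1 and rank 10 were chosen after their values were seen, to show how different bases gave 1 peptide.
rank 1, TRBJ2-5, 110 cells: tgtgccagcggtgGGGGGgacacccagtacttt
rank 1, TRBJ2-5, 50 cells: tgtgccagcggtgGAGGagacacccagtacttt
rank 1, TRBJ2-5, 46 cells: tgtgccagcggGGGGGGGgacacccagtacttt
rank 10, TRBJ2-7, 21 cells of lucOS NICD male replicate 1: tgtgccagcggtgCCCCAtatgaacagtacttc
rank 10, TRBJ2-7, 5 cells of lucOS sgp53 replicate 2: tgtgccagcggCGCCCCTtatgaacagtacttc
Of the rank 1 versions, those with 50 and 46 cells were mostly paired with the same alpha segments, TRAV14N-3 with TRAJ22, in 37 of 48 and 31 of 45 cells with an alpha chain. The version with 110 cells was paired with TRAV8D-2 and TRAJ39 in 98 of 106. The 2 versions of rank 10 came from different animals and were paired with TRAV4-3 and TRAJ17 in 21 of 21 cells and with TRAV4D-3, a near copy, and TRAJ17 in 5 of 5. Like alpha segments were thus found with separate joints in the rank 1 versions of 50 and 46 cells and in the versions of rank 10. The rank 1 version of 110 cells mostly had other alpha segments. The versions of rank 2 and rank 8 mostly differed in their combinations of alpha segments, though segments of the TRAV9 family recurred in both ranks. For rank 2 the most frequent were TRAV9-2 with TRAJ27, TRAV9-4 with TRAJ45 and, for 1 sequence in 2 animals, TRAV8N-2 with TRAJ7 and TRAV13-1 with TRAJ34. For rank 8 they were TRAV9D-2 with TRAJ12, TRAV9-2 with TRAJ39, TRAV9N-4 with TRAJ26, TRAV9-4 with TRAJ39 and TRAV3D-3 with TRAJ49. All of these but the last are TRAV9 family segments, and those with TRAJ39 came from different animals.

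Over all members, 20 peptides were encoded by at least 2 base sequences and held 473 cells, and 7 of the 20 were seen in luc animals. A peptide was found in at least 2 animals for 22 of 606 members (3.63%) and for 131 of 4086 peptides of other TRB (3.21%). Of the 22, 15 were in at least 2 lucOS animals, 2 in at least 2 luc animals and 8 in animals of both constructs. Exact bases were shared between animals for 8 of 633 TRBV13-2 sequences (1.26%) and 25 of 4256 others (0.587%). These shares were not tested, since more animals and cells were lucOS than luc.

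Of the 8 shared sequences, 2 were found in 4 animals and 6 in 2 animals. The former were
TRBJ2-7, 75 cells in 4 lucOS animals: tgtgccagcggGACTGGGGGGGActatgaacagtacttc
TRBJ1-5, 48 cells in 4 lucOS animals: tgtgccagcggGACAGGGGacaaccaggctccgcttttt
The 6 sequences in 2 animals held 2 to 22 cells, and 2 of them were seen in luc, 1 in luc animals only.
The TRBJ2-7 sequence in 4 animals was paired with TRAV14N-3 and TRAJ6 in 43 of 43 cells with an alpha chain in the animal of lucOS sgp53 replicates 3 and 4 and in 5 of 5 cells in lucOS NICD female replicate 2. In lucOS NICD male replicate 1 its 21 cells mostly carried TRAV7D-2 with TRAJ9 (15 cells). Of 530 pairs of alpha and beta CDR3 bases among the members, 2 occurred in more than 1 animal. One was this TRBJ2-7 sequence with a TRAV14 and TRAJ6 alpha chain, in 43, 6 and 5 cells of 3 animals. The other was the TRBJ1-5 sequence with TRAV8-1 and TRAJ30, in 34 and 2 cells of 2 animals. None of these cells had a barcode seen in the other animals. Over all T cells, 39 of 7566 barcodes occurred in 2 libraries, and 1 of those had the same TRB in both and was not a TRBV13-2 receptor.

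A few alpha segment combinations recurred among TRBV13-2 clonotypes. A beta sequence found in several animals counts once in each, so these counts include the shared sequences described above. Counted once per animal and clonotype, TRAV14 family segments with TRAJ6 occurred in 9 TRBV13-2 clonotypes (95 cells, 6 animals), all in lucOS. They occurred in 5 clonotypes of other TRB, 2 in luc and 3 in lucOS. TRAV3 family segments with TRAJ49 occurred in 7 TRBV13-2 clonotypes (86 cells, 5 animals), all in lucOS, and in 12 of other TRB, 7 in luc and 5 in lucOS. TRAV8 with TRAJ30 occurred in 6, again all in lucOS, against 15 of other TRB, 4 in luc and 11 in lucOS. Of the 47 TRBV13-2 cells with TRAV8 and TRAJ30, 46 had the peptide of rank 5, most with the shared TRBJ1-5 sequence. The shared TRBJ2-7 sequence likewise enters the count of TRAV14 with TRAJ6 more than once. Among TRBV13-2 clonotypes, other combinations at least as frequent as TRAV8 with TRAJ30 occurred in both constructs. TRAV14 with TRAJ22 occurred in 4 luc and 6 lucOS TRBV13-2 clonotypes, TRAV6 with TRAJ22 in 4 and 3, TRAV7 with TRAJ22 in 5 and 1, and TRAV9 with TRAJ26 in 1 and 5. In other TRB these 4 occurred in 45, 31, 26 and 23 clonotypes. Counted once for each TRAV family and TRAJ they were paired with, TRBV13-2 clonotypes numbered 190 in luc and 341 in lucOS. For other TRB these totals were 1271 and 2194. Those named are the combinations with at least 6 TRBV13-2 clonotypes, a limit set after the counts were seen, other than the NKT chain and TRAV1 with TRAJ33, which are described below. No test was made.

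The CDR3s of TRBV13-2 clonotypes were 10 to 19 residues long, with a median of 14, and no difference in mean length from other TRB passed the test when each clonotype was counted once. Mean length was 13.83 ± 0.372 residues for TRBV13-2 and 13.87 ± 0.157 for other TRB (SD, n = 12 animals). The difference of -0.04 had an exact two-sided sign-flip permutation p of 0.714 (adjusted p = 0.714 over 3 measures), with 7 animals higher and 5 lower. Counted by T cells the difference was -0.52 residues, given as a description because the large clones that set the T cell share weigh most in it. In the animals, mean length over TRBV13-2 clonotypes ranged from 13.87 to 14.33 in luc and from 13.18 to 14.03 in lucOS.

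Short CDR3s of at most 11 residues, a threshold set after the lengths were seen, were frequent among TRBV13-2 receptors of lucOS tumours. They made up 10.5%, 2.38%, 2.67% and 8.43% of TRBV13-2 clonotypes in the 4 luc animals. In lucOS animals the values ran from 2.70% to 21.1%, with a median of 16.9%, and 5 of the 8 were above every luc animal. Means were 6.00% ± 4.11 (SD, n = 4) in luc and 14.4% ± 7.20 (SD, n = 8) in lucOS. Among other TRB clonotypes they were 5.12% ± 1.65 and 6.21% ± 1.92. By T cells the TRBV13-2 values were 6.62% ± 4.98 and 36.3% ± 27.5, against 4.90% ± 1.71 and 9.44% ± 5.39 for other TRB. The highest values were 79.7% of TRBV13-2 cells in lucOS NICD female replicate 3 and 72.8% in lucOS sgp53 replicates 3 and 4. By clonotype these animals had 20% and 20.8%. In the former the largest clonotype, of 11 residues, held 60 of 79 cells, and in the latter the peptide of rank 1 held 206 of 408. The values by T cells are thus a description in which the large clones that set the T cell share weigh most. Of the 12 most abundant TRBV13-2 peptides, 8 had at most 11 residues, against 1 of the 16 other TRB peptides with at least 20 cells. This count again describes the large clones.

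**Figure D4:**
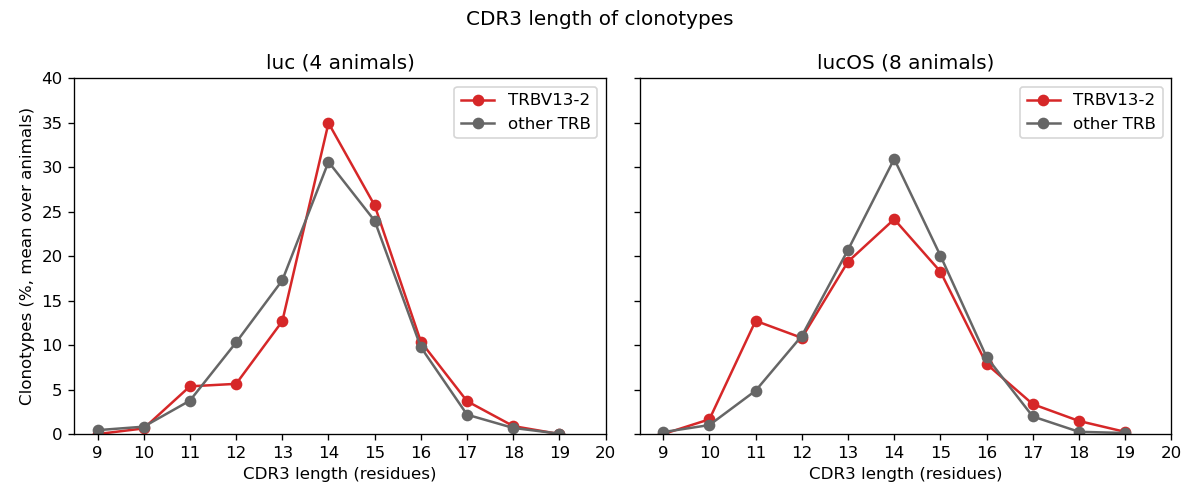
Percentage of clonotypes at each CDR3 length in residues, averaged over 4 luc (left) and 8 lucOS (right) animals, for TRBV13-2 (red) and other TRB (grey). In lucOS, 12.7% of TRBV13-2 clonotypes have 11 residues against 4.88% of other TRB, and in luc the values are 5.37% and 3.76%.

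The V end, the J end and the bases between them were each slightly shorter on average in lucOS than in luc. TRBV13-2 clonotypes matched the V end over 14.4 ± 0.147 bases in luc (SD, n = 4) and 13.8 ± 0.377 bases in lucOS animals (SD, n = 8). The match to the J end was 17.7 ± 0.591 and 17.2 ± 0.662 bases, and 10.5 ± 0.172 and 9.94 ± 0.566 bases lay between. Glycine, a small flexible residue coded by GG-starting triplets such as those in the printed joints, occurred 2.53 ± 0.164 times per TRBV13-2 CDR3 in luc clonotypes and 2.50 ± 0.128 times in lucOS. Other TRB had 1.37 ± 0.0813 and 1.37 ± 0.0823. The V end of TRBV13-2 itself codes for a glycine.

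J segments were then compared between TRBV13-2 and other TRB in the same 12 animals. Of 12 TRBJ segments tested, 1 (8.33%) passed an adjusted p of 0.05, TRBJ1-4, which was used less by TRBV13-2. TRBJ1-4 made up 5.26%, 2.38%, 9.33% and 1.20% of TRBV13-2 clonotypes in the luc animals and 0% to 5.71% in the lucOS animals. Over all 12 it was 3.49% ± 2.65 for TRBV13-2 and 7.41% ± 1.34 for other TRB (SD, n = 12), a difference of -3.92 points, lower in 11 of 12 animals (exact sign-flip permutation, p = 0.000977, adjusted p = 0.0117). The 3 segments most used by TRBV13-2 were TRBJ2-7 with 23.4% ± 7.73, TRBJ2-1 with 12.7% ± 3.99 and TRBJ2-5 with 11.7% ± 5.53. Other TRB used them at 19.5% ± 2.14, 13.1% ± 1.86 and 12.1% ± 1.90, and these differences did not pass the test. TRBJ2-7 among TRBV13-2 clonotypes was 20.9% ± 9.07 in luc (SD, n = 4) and 24.6% ± 7.32 in lucOS (SD, n = 8).

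**Figure D5:**
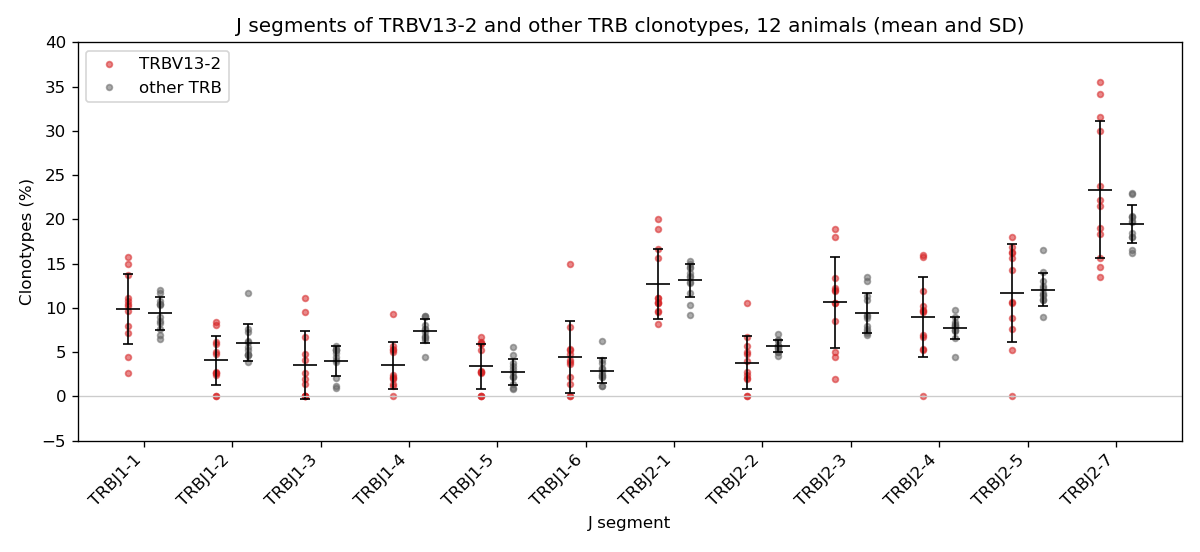
Percentage of clonotypes with each TRBJ segment for TRBV13-2 (red) and other TRB (grey), 1 point per animal, with the mean and SD over 12 animals. TRBJ1-4 is lower in TRBV13-2 in 11 of 12 animals, and TRBJ2-7 has the highest mean in both, 23.4% and 19.5%.

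An alpha chain was recovered for 79.7% ± 6.49 of TRBV13-2 cells and 77.4% ± 5.68 of other cells (SD, n = 12), a difference of 2.31 points that did not pass the test (exact sign-flip permutation, p = 0.290, adjusted p = 0.435). Of 41 TRAV entries tested, 1 (2.44%) passed, TRAV11, which was paired more often with TRBV13-2. TRAV11 made up 11.9% ± 7.30 of TRBV13-2 clonotypes and 1.94% ± 1.24 of the others (SD, n = 12), higher in 11 of 12 animals (exact sign-flip permutation, p = 0.000977, adjusted p = 0.0400). Leaving out any 1 of 10 animals, each in turn, gave an adjusted p of 0.0762 to 0.0840 (unadjusted p = 0.00195 each time, exact permutation), while leaving out either of the other two gave 0.0381 and 0.0400. The other entries most used by TRBV13-2 were TRAV1 with 5.86% ± 7.10, TRAV7D-2 with 4.23% ± 4.69 and TRAV12D-3 with 3.31% ± 4.29. Their use in other TRB was 3.76% ± 4.37, 2.75% ± 1.07 and 2.92% ± 1.44, and none passed the test.

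Mouse TRAV segments exist in near-identical copies, so the entries were also merged into families, an alternative chosen after the data were seen. Of 15 families, 2 (13.3%) passed. TRAV11 was again higher with TRBV13-2 (adjusted p = 0.00732), and TRAV6 was lower, with 6.28% ± 3.66 against 11.6% ± 2.48 of clonotypes (SD, n = 12), lower in 11 of 12 animals (exact sign-flip permutation, p = 0.000977, adjusted p = 0.00732).

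The alpha chain TRAV11 with TRAJ18 is the invariant chain of NKT cells, and it was more frequent among TRBV13-2 cells than among others. In luc animals it made up 19.4% of TRBV13-2 cells with an alpha chain in NICD replicate 1 and 6.06%, 13.2% and 15.3% in sgp53 replicates 1 to 3. In lucOS NICD animals it made up 2.63%, 4.55% and 1.61% in females and 6.25% and 9.38% in males, and in lucOS sgp53 animals 11.2%, 0% and 2.27%. Over the 12 animals it was 7.65% ± 6.07 of TRBV13-2 cells and 1.28% ± 0.720 of other cells (SD, n = 12), higher in 11 of 12 (exact sign-flip permutation, p = 0.00146, adjusted p = 0.00439). TRBV13-2 held 68 of the 127 cells with this alpha chain (53.5%, 95% Wilson interval 44.9% to 62.0%). This count pools the cells of several animals, and the interval covers counting error only. The NKT cells with TRBV13-2 were almost all single: 68 cells fell into 67 clonotypes. Within TRBV13-2 the share of cells was 13.5% ± 5.56 in luc (SD, n = 4) and 4.74% ± 3.93 in lucOS (SD, n = 8), beside the larger number of cells in clones in lucOS. By clonotype the gap was smaller. Pooled over animals, 26 of 190 TRBV13-2 clonotypes in luc and 41 of 341 in lucOS had this chain. Per animal, all TRAV11 chains made up 14.3% ± 6.02 (SD, n = 4) and 10.6% ± 7.52 (SD, n = 8) of TRBV13-2 clonotypes. Without the TRAV11-TRAJ18 cells the T cell share of TRBV13-2 was 8.82% in luc NICD, 11.2% in luc sgp53, 19.2% in lucOS NICD females, 22.7% in the males and 23.7% in lucOS sgp53.

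TRAV1 with TRAJ33 is the alpha chain of mucosal-associated invariant T cells, which recognise vitamin B metabolites on MR1. It was found in 15 of 197 TRBV13-2 cells with an alpha chain in luc (7.61%, 95% Wilson interval 4.67% to 12.2%) and 13 of 1013 in lucOS animals (1.28%, 0.751% to 2.18%). Among other TRB it was found in 54 of 1424 (3.79%, 2.92% to 4.91%) and 46 of 3415 (1.35%, 1.01% to 1.79%). These counts pool the cells of several animals, and the intervals cover counting error only. Per animal the share of TRBV13-2 cells was 5.46% ± 8.59 (SD, n = 4) in luc, from 0% to 18.1%, and 3.37% ± 5.46 (SD, n = 8) in lucOS, from 0% to 13.6%, so the pooled gap lies within the spread between animals. By clonotype, all TRAV1 chains made up 5.53% ± 8.64 and 6.18% ± 6.94.

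No difference in TRBV13-2 use between NICD and sgp53 tumours passed the test in the 12 females. NICD minus sgp53 was -3.71 points of T cells, the mean of -2.76 within luc and -4.67 within lucOS (exact stratified permutation, two-sided, p = 0.36, adjusted p = 0.622 over 19 TRBV entries). Of the 19 entries, 0 passed an adjusted p of 0.05, which is 0%, and 1 other entry had an unadjusted p under 0.05. By clonotypes it was -1.66 points, the mean of -3.91 within luc and 0.59 within lucOS (p = 0.325 by the same exact permutation test, adjusted p = 0.618), and it was 0.58 points without the luc NICD libraries of 77 and 49 T cells. By clonotypes 2 of 19 entries passed (10.5%), TRBV14 and TRBV16, and not TRBV13-2. The smallest p this design can give is 0.005, and a lone entry at that p has an adjusted p of 0.095.

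The TRBV entries whose share of clonotypes was most like that of TRBV13-2 over the 14 animals by Pearson's r were TRBV16, TRBV13-1 and TRBV10. Pearson's r was 0.477, 0.283 and 0.218, and Spearman's rho was 0.182, 0.0901 and 0.244. By Spearman's rho TRBV19 was highest, with 0.345 and an r of 0.122. These are descriptions over animals that differ in depth, and shares of a whole are not independent of each other.

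Replicates 3 and 4 of lucOS sgp53 show how far the clones of 1 animal were seen again in a second library. TRBV13-2 made up 167 of 706 T cells in replicate 3 (23.7%, 95% Wilson interval 20.7% to 26.9%) and 241 of 644 in replicate 4 (37.4%, 33.8% to 41.2%). The libraries held 46 and 37 TRBV13-2 clonotypes, of which 11 were in both, which is 23.9% of the first and 29.7% of the second. The 11 held 77.2% and 88.8% of the TRBV13-2 cells. For other TRB, 48 clonotypes were in both, 14.5% and 16.6% of each, with 41.7% and 38.0% of the cells.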

How the data were processed

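Receptor contigs of 15 libraries were used. The authors deposited contig tables with UMI counts and read counts per contig. The submitters' processing notes name Cell Ranger, Seurat and mm10, without versions. Equal mixing of CD45 positive and negative cells, per the labels' protocols, fixed the immune share of the cells loaded. Productive, high-confidence TRB contigs of barcodes called cells were kept, 1 per barcode, with the most UMIs (medians of 6 to 14 per library), likewise for alpha chains. Barcodes with several TRB contigs (4.52% of T cells) were kept; leaving them out was an alternative. The deposited UMI counts choose contigs only and enter no test.

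TRBV13-2 was compared with other TRB within animals by exact two-sided sign-flip tests (at least 10 TRBV13-2 clonotypes), and NICD with sgp53 by exact permutation within luc and lucOS, with Benjamini-Hochberg adjustment over features with a mean share of at least 1%. Named genes were those called, the 3 TRBJ and 4 TRAV most used, and the 3 most similar TRBV entries; sequences shown were the largest per group and those in most animals. The members and lists were chosen with earlier results of these data known. The planned test of cells in clonotypes of 2 or more was replaced by a description, because these cells set the share the members were chosen by. A planned comparison of Trbv13-2 in bulk tumours was not run, since the bulk TPM table as analysed here has no receptor segment rows. Scripts were tested on simulated data. Python 3.11.15, numpy 2.4.6, pandas 2.3.3, scipy 1.17.1 and matplotlib 3.10.9 were used. Intervals are 95% Wilson intervals.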

Additional observations from a re-analysis of the deposited data

Results flagged for a closer look

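CDR3 length of TRBV13-2 clonotypes, relative to other TRB of the same animal, went in opposite directions in the sgp53 groups. In luc sgp53 females the difference averaged 0.335 residues and was above 0 in all 3 animals. In lucOS sgp53 females it averaged -0.412 residues and was below 0 in all 3 animals, though only -0.0451 in replicate 1. The NICD animals did not follow this, with -0.175 in luc NICD replicate 1 and -0.328 to 0.0967 in lucOS NICD animals. The difference between the sgp53 groups was not tested.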

How the results depend on the processing

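Of the alternatives, leaving out the joint entry changed most, as it leaves 84 cells and 2 animals with at least 10 clonotypes. Then lucOS minus luc was -1.54 points of T cells, NICD minus sgp53 was 0.929 points of T cells and 0.868 of clonotypes, the difference in cells in clonotypes of 2 or more was -42.4 points, the TRAV11-TRAJ18 difference was 3.63 points (adjusted p = 1, exact sign-flip permutation), and 0 TRBJ and 0 TRAV entries passed, in a design where p cannot go below 0.5. Counting T cells in place of clonotypes gave a length difference of -0.52 residues, 2 TRBJ and 4 TRAV entries, with the large clones weighing most. At least 3 UMIs in the contig gave 3 TRAV entries. Chosen after seeing the data, leaving out TRAV11-TRAJ18 cells gave 2 TRBJ and 0 TRAV entries, TRAV families gave 2, and leaving out the libraries of 77 and 49 T cells turned NICD minus sgp53 in clonotypes to 0.58 points. Leaving out 1 animal at a time gave lucOS minus luc of 8.56 to 14.2 points, NICD minus sgp53 of -6.79 to -1.75 points of T cells and -2.78 to -1.02 of clonotypes, and length differences of -0.0893 to 0.0262 residues, the latter without lucOS sgp53 replicate 2. It gave 0 to 2 TRAV and 1 TRBJ entries, and TRAV11-TRAJ18 differences of 5.24 to 7.03 points that passed each time. The other settings tried for these results kept direction and side of the threshold. The bulk comparison was not run. Depth limits the luc animals, with 3 to 89 TRBV13-2 cells each.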
